A study of Mus musculus with 3 samples.

Results

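The cytosolic ribosomal protein genes were followed through the tumor-infiltrating lymphocytes (TILs) of Kaede mice. Members were chosen by symbol alone (*Rpl* or *Rps* followed by a digit, *Rplp0*, *Rplp1*, *Rplp2* and *Rpsa*, without pseudogene names), which picked 96 of the 32285 genes in the deposited tables. The name held for 85 of them: 43 proteins of the large subunit, 3 of the stalk, 31 of the small subunit and 8 paralogs (*Rpl3l*, *Rpl7l1*, *Rpl10l*, *Rpl22l1*, *Rpl36al*, *Rpl39l*, *Rps27l* and *Rps27rt*). The other 11 encode no ribosomal protein (the ribosomal S6 kinases and *Rps19bp1*) and were kept out of every sum and count below. *Fau* and *Rack1* encode ribosomal proteins but fall outside the rule.

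All mice were C57BL/6 Kaede animals, which carry a protein that turns from green to red under violet light, and all bore subcutaneous MC38-Ova tumors grown from 250000 injected cells of this mouse colon carcinoma line expressing ovalbumin. The labels also give an isotype control treatment for every library. Tumors were photoconverted on day 13 and harvested on day 15, so Kaede-green (KG+) cells had entered within the last 2 days and Kaede-red (KR+) cells had been there for at least 2 days. Live CD45+ Ter119- cells were sorted with a gate that left out CD11b+ NK1.1- cells, and 3 droplet libraries of 3′ ends were made, named here by color: Kaede-green 1 and 2 hold KG+ cells, and Kaede-red, the only library of its kind, holds KR+ cells. Values for the 3 libraries are always given in the order Kaede-green 1, Kaede-green 2, Kaede-red. How many tumors went into each library is not given in the sources used here. With 1 Kaede-red library, differences between colors have no test. P-values between cell classes rest on how far the differences within each library vary over these 3 libraries, and on the spread of other genes. The edgeR fit draws the spread of each gene toward that of the genes tested with it. A small p-value therefore does not come from the spread of 1 gene over 3 libraries alone. The 3 are not replicates of 1 condition, since 2 hold KG+ and 1 holds KR+ cells. Because KG+ and KR+ cells were split from sorted TILs, libraries of both colors may come from the same tumors.

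A ribosome joins a small subunit, which reads the mRNA, to a large subunit, which makes the peptide bond. Nearly every protein of both subunits is encoded by 1 active gene, and a few have a paralog made mostly in particular tissues. The mRNAs of these genes begin with a run of pyrimidines (the 5′ terminal oligopyrimidine, or TOP, motif), through which mTORC1 and its target LARP1 set how well they are translated. Resting lymphocytes hold few ribosomes, and activation through MYC and mTORC1 brings ribosome production with growth and division.

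The results turned on *Rps27* and its paralog *Rps27l*, both of which encode an eS27 protein of the small subunit, so their coding sequences (GENCODE M21) are shown from start to stop codon. Capitals in *Rps27l* mark the bases that differ from *Rps27*. Of 255 bases, 61 differed, in 54 of 85 codons, leaving 76.1% identity.
Rps27: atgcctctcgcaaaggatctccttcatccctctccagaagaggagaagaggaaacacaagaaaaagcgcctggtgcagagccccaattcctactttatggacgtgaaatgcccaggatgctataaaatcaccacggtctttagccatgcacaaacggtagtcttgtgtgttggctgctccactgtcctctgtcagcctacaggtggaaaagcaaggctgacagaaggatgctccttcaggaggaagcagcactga
Rps27l: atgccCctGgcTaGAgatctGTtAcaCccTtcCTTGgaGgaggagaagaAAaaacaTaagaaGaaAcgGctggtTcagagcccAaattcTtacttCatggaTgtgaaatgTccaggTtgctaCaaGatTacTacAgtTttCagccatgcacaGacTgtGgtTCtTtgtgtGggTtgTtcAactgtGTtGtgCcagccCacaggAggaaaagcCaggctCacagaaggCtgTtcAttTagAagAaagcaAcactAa

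*Rps27rt*, a further copy on chromosome 9, matched *Rps27* at 255 of 255 coding bases (100% identity), so the division of reads between these 2 genes is uncertain and they are given together below. *Rps27* lies at chr3:90212522-90213651 on the minus strand of GRCm38, *Rps27l* at chr9:66946086-66949516 on the plus strand, and *Rps27rt* at chr9:114982366-114982739 on the minus strand, opposite *Osbpl10*. The 85 members lie on 19 chromosomes, with most (14) on chromosome 7. For the other paralogs the identity over aligned coding bases was 87.9% (*Rpl36al* and *Rpl36a*), 85.3% (*Rpl39l* and *Rpl39*), 84.8% (*Rpl10l* and *Rpl10*), 74.8% (*Rpl3l* and *Rpl3*), 74.6% (*Rpl22l1* and *Rpl22*) and 63.4% (*Rpl7l1* and *Rpl7*).

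The start windows of 6 of the members named below show where the letters CTTTC, a short pyrimidine run, stand near the annotated start, and which windows do not hold them. Each is 30 bases of RefSeq sequence on the gene's strand (GRCm38.p6), with the letters CTTTC in capitals where they occur. The annotated start need not be the one used in these cells. These 6 do not show how common the letters are in the family. Among windows not printed, those of *Rps2*, *Rps21* and *Rpl41* lacked the letters and those of *Rpl12* and *Rpl13a* held them.
Rpl35 (chr2:39005112-39005141, minus strand): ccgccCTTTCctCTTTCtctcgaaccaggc
Rps27 (chr3:90213629-90213658, minus strand): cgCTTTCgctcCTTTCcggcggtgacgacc
Rpl28 (chr7:4792955-4792984, plus strand): tctcgtgtctctCTTTCcgtctccggccgc
Rps26 (chr10:128626487-128626516, minus strand): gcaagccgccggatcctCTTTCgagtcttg
Rps27l (chr9:66946076-66946105, plus strand): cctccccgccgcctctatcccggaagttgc
Rpl10 (chrX:74270806-74270835, plus strand): tacagtggaagataggccgcctatataagg

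A RefSeq promoter was found for 65 of the 85 members. The letters CTTTC stood on the gene's strand between 20 bases before and 30 bases after the annotated start in 23 of these 65 (35.4%), against 2069 of 27025 genes with a promoter (7.66%). On the other strand the same letters stood in 7 members (10.8%) and in 7.30% of all genes. CACGTG, the E-box that MYC binds, reads the same on both strands and was sought over the whole promoter, a longer stretch than that for CTTTC. It stood in 6 members (9.23%) and in 8.09% of all genes.

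Before filtering, the libraries held 10498, 12327 and 11956 cells, of which 10000, 11078 and 10865 had 1000 to 6000 genes and under 7.5% mitochondrial unique molecular identifiers (UMIs). These cells held 84772050, 122759346 and 165470204 UMIs, with medians of 6628, 8512.5 and 12076 per cell, so Kaede-red was the deepest. Libraries shared 20 to 36 cell barcodes, pair by pair. Cells were classed by raw UMIs: NK cells (*Ncr1* at least 1, *Cd3e* at most 1), CD8 T cells (*Cd3e* at least 2, *Cd8a* and *Cd8b1* at least 1 each), CD4 T cells (*Cd3e* at least 2, *Cd4* at least 1, no *Foxp3*) and Treg cells (*Cd3e* at least 2, *Foxp3* at least 1). A further 129, 338 and 278 cells met both the CD8 rule and that of CD4 T or Treg cells, and were left out of all 3 classes. Marker sums were partly set by the class rules, since *Ncr1*, *Cd8a*, *Cd8b1*, *Cd4* and *Foxp3* are among the markers. The 7 NK markers summed to between 2111 and 2783 CPM (UMIs scaled to the same total in every sum) in NK cells and between 735 and 1255 in CD8 T cells. The 5 CD8 T markers summed to between 4059 and 5071 in CD8 T cells and between 87.7 and 212 in NK cells. The 6 CD4 T markers, which include *Cd3d*, *Cd3g* and *Trac*, did not separate CD4 T cells (2796 to 3421) from CD8 T cells (2716 to 3353). The 5 Treg markers summed to between 4419 and 5265 in Treg cells and between 1376 and 2404 in CD4 T cells. The 4 erythroid markers summed to at most 0.168 CPM in NK and CD8 T cells.

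Ribosomal protein transcripts made up 28.7%, 28.0% and 30.6% of all UMIs in the 3 libraries. Because each UMI marks 1 molecule captured at its 3′ end, CPM were compared between genes without division by length. The leading members were *Rps29* (7903 ± 244 CPM, SD, n = 3 libraries), *Rpl41* (7613 ± 582), *Rps24* (7228 ± 209), *Rps15a* (6202 ± 711) and *Rpl39* (6193 ± 549), all core proteins of the small or the large subunit. The paralogs were far lower. *Rpl36al* (950 CPM) and *Rpl22l1* (944) were the most abundant of them, followed by *Rps27l* (277 ± 40.4), *Rps27rt* (136 ± 6.24) and *Rpl7l1* (50.5). *Rpl39l* (1.21 CPM) and *Rpl3l* (0.16), which are known from testis and striated muscle, were close to 0, and *Rpl10l* had 1, 1 and 0 UMIs in the 3 libraries.

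The share of UMIs in ribosomal protein transcripts ordered the lymphocyte classes. It was highest on average in CD8 T cells, with 31.6%, 29.7% and 29.6% (30.3 ± 1.10%, SD, n = 3), followed by NK cells with 26.7%, 27.7% and 33.2% (29.2 ± 3.48%), CD4 T cells with 26.5%, 25.2% and 25.2% (25.6 ± 0.743%) and Treg cells with 23.2%, 24.0% and 22.4% (23.2 ± 0.798%). CD8 T cells lay above CD4 T cells, and CD4 T cells above Treg cells, in every library, and these 3 classes did not overlap. NK cells had no fixed place, since in Kaede-red they lay above CD8 T cells and in both Kaede-green libraries below them. The 95% Wilson interval of a share reached at most 0.112 percentage points to either side, which covers counting error only.

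Subsets differed within each class. Among CD8 T cells, those with *Havcr2* (TIM-3, an inhibitory receptor of exhausted cells) had shares of 27.8%, 27.5% and 27.6% (27.6 ± 0.168%) and those without it 32.9%, 31.3% and 32.1% (32.1 ± 0.810%), with no overlap. NK cells with *Itga1* (CD49a, carried by tissue-resident cells) and no *Itgam* had 29.5%, 29.6% and 32.7% (30.6 ± 1.80%), and those with *Itgam* (CD11b, carried by circulating cells) and no *Itga1* had 23.3%, 23.7% and 30.6% (25.9 ± 4.07%). Within each library the *Itga1*-positive cells were the higher by 6.17, 5.95 and 2.13 points, although the *Itgam*-positive cells of Kaede-red lay above the *Itga1*-positive cells of both Kaede-green libraries. The Kaede-red *Itgam*-positive sum rests on 76 cells. These subsets leave out 5198 NK cells with neither gene, which had 26.6%, 27.5% and 34.2% (29.4 ± 4.13%). Such cells lay above the *Itga1*-positive cells in Kaede-red and below them in both Kaede-green libraries. Counts per cell gave another order, since the classes differ in depth. Cells with *Havcr2* held on average 4320, 4439 and 5411 UMIs of the members and those without it 3364, 3737 and 4365, and Treg cells held 2936, 3223 and 2256 against 1922, 2248 and 1958 in CD4 T cells, so in both comparisons the group with the smaller share had more of these UMIs per cell in every library.

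**Figure D1:**
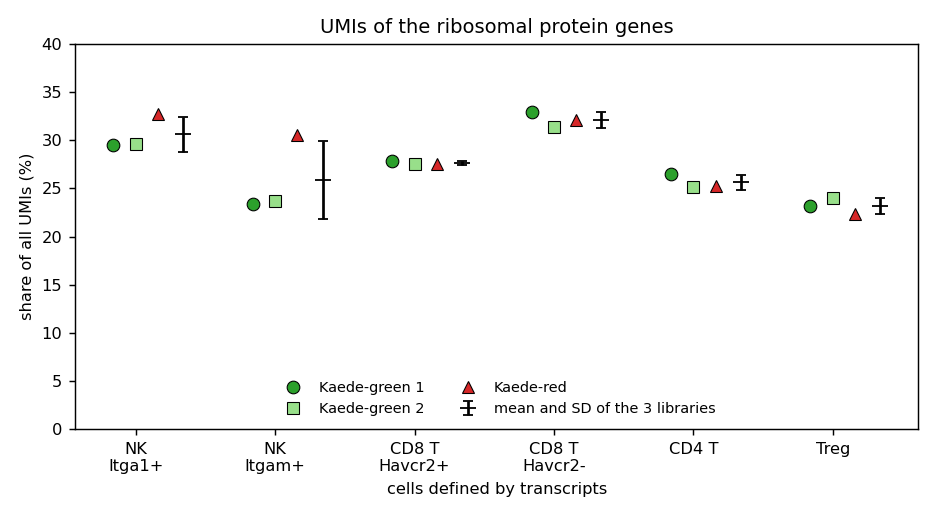
Share of all UMIs in the 85 ribosomal protein genes (percent, vertical axis) for each cell class, with 1 point per library colored by library and a bar at the mean ± SD (n = 3). CD8 T cells without *Havcr2* are highest at 32.1% and Treg cells lowest at 23.2%, and in the NK classes the Kaede-red point lies above both Kaede-green points.

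Up to 16000 UMIs, cells with more UMIs held a larger share of ribosomal protein transcripts. In NK cells of Kaede-green 1 the share was 16.4% below 4000 UMIs, 23.6% from 4000 to 8000, 29.9% from 8000 to 16000 and 31.8% above. Kaede-green 2 NK cells followed the same steps (16.5%, 22.5%, 28.5% and 31.2%), and Kaede-red NK cells lay above both at every step (23.2%, 29.3%, 34.2% and 33.3%). In Treg cells of Kaede-green 2 the steps were 17.9%, 18.9%, 21.4% and 26.7%. In CD8 T cells the share was no higher above 16000 UMIs than from 8000 to 16000, with 31.5%, 30.4% and 29.6% against 33.8%, 30.5% and 29.9%.

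Shares were also read over a narrower range of depth, within which the classes still differed in depth: median UMIs were 8546, 8860.5 and 10134.5 in CD8 T cells and 6816, 7255 and 7122 in CD4 T cells, and 8094, 9047 and 10000 in *Itga1*-positive and 6597.5, 7235 and 6875 in *Itgam*-positive NK cells. Among cells with 5000 to 15000 UMIs the shares were 32.4%, 29.2% and 29.5% in CD8 T cells, 27.3%, 26.3% and 33.1% in NK cells, 26.9%, 25.03% and 24.2% in CD4 T cells and 21.4%, 20.5% and 20.02% in Treg cells. CD8 T, CD4 T and Treg cells kept that order in every library. The mean difference of Treg from CD4 T cells was -4.76 points, against -2.47 ± 1.11 over all depths, and that of CD8 T cells with *Havcr2* from those without it was -5.81, against -4.50 ± 0.650. For *Itga1*-positive against *Itgam*-positive NK cells it was 2.43 points, against 4.75 ± 2.27. In the bin of 4000 to 8000 UMIs the *Itga1*-positive cells had 24.1%, 22.1% and 29.2% and the *Itgam*-positive cells 22.6%, 21.3% and 27.6%. From 8000 to 16000 UMIs the shares were 30.1%, 28.9% and 33.6% against 26.9%, 26.6% and 34.1%. In Kaede-red the *Itgam*-positive cells were thus the higher in that bin, where they numbered 23.

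**Figure D2:**
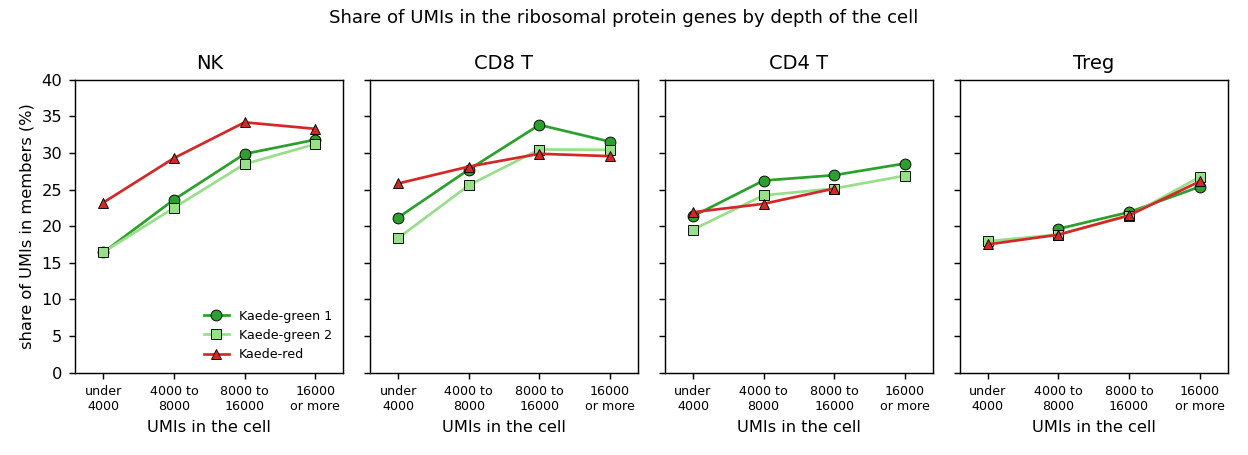
Share of UMIs in ribosomal protein genes (percent, vertical axis) in bins of UMIs per cell (horizontal axis), 1 panel per class and 1 line per library. The share rises from the lowest bin shown to the bin of 8000 to 16000 UMIs in every class and library shown, and the Kaede-red line of NK cells lies above both Kaede-green lines.

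Within NK cells, most ribosomal protein transcripts made up a larger share of all transcripts in *Itga1*-positive than in *Itgam*-positive cells. Of 82 members tested, 62 were higher and 2 lower at an edgeR Benjamini-Hochberg adjusted p under 0.05, where 18.5% of the 9506 genes tested were higher and 17.3% lower. The median log2 fold change of the members was 0.34, against -0.02 for all genes. By role, 33 of 43 large subunit genes, 23 of 31 small subunit genes and 2 of 3 stalk genes were higher, with 1 small subunit gene lower. Of the paralogs, 4 of the 5 tested were higher and 1 lower. In 60 members *Itga1*-positive cells were the higher in all 3 libraries. This count of direction, here and in the comparisons below, was made for the members only, so no share of all genes stands beside it.

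*Rpl35*, a protein at the exit of the peptide tunnel, led. It had 2944, 2569 and 2777 CPM in *Itga1*-positive cells, and 1652, 1516 and 1923 in *Itgam*-positive cells. The groups did not overlap, and the log2 fold change was 0.78 ± 0.083 (SE, edgeR adjusted p = 2.46e-05), a 1.72-fold rise. *Rps20* had 5198, 5341 and 6547 CPM against 3137, 3331 and 4805 (log2 0.69), and *Rps2*, which lines the mRNA entry channel, had 4132, 3921 and 4855 against 2539, 2515 and 3566 (log2 0.67). These small subunit genes rose in each library, and in each the Kaede-red library was the highest within its subset.

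The stalk proteins, which recruit elongation factors to the large subunit, rose unevenly. *Rplp0* (P0, the base of the stalk) had 4498, 4382 and 5071 CPM against 3238, 3130 and 4088 and rose by 0.50 (log2), and *Rplp2* rose by 0.23 (edgeR adjusted p = 0.0438), a call lost in 7 alternatives, among them those without Kaede-green 1 (0.348), without Kaede-green 2 (0.335) and without TMM factors (0.139). *Rplp1* did not pass the test (log2 0.17, adjusted p = 0.134). Of the 5 most abundant members, *Rpl41*, *Rpl39* and *Rps15a* rose by 0.63, 0.37 and 0.32, whereas *Rps29* (0.21, adjusted p = 0.0611) and *Rps24* (0.15, adjusted p = 0.159) did not pass. The calls of *Rpl39* and *Rps15a* were lost without Kaede-green 1 (adjusted p = 0.118 and 0.159), without Kaede-green 2 (0.150 and 0.210) and without the replicate block, and that of *Rplp0* without the block (0.0605). *Rps29*, *Rps24* and *Rplp1* passed as higher without Kaede-red, without cycling cells and without the filter on low counts. Of the paralogs, *Rpl22l1* rose by 0.48, *Rpl7l1* by 0.47 and *Rpl36al* by 0.42. *Rpl22l1* had the opposite sign at 5000 to 15000 UMIs (-0.044), and *Rpl7l1* did not pass at that depth (edgeR adjusted p = 0.267), without Kaede-green 1 (0.196) or by DESeq2 (0.0706).

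*Rps27* went the other way from its paralog. It had 4934, 4804 and 4057 CPM in *Itga1*-positive cells and 5890.0, 5565 and 5965 in *Itgam*-positive cells, without overlap (log2 -0.27 ± 0.086, edgeR adjusted p = 0.0299). *Rps27rt* had 110.0, 114 and 108 CPM against 137, 167 and 155 (log2 -0.39 ± 0.095, adjusted p = 0.00674). *Rps27l* had 294, 328 and 342 CPM against 184, 236 and 180.0, also without overlap, and was 1.68-fold higher (log2 0.75 ± 0.096, adjusted p = 9.69e-05). The fall of *Rps27* did not pass without Kaede-green 1 (adjusted p = 0.143), without Kaede-green 2 (0.139), at 5000 to 15000 UMIs (log2 -0.08, 0.275) without cycling cells (0.208) or without the replicate block (0.153), and that of *Rps27rt* did not pass without Kaede-green 2 (0.130), at that depth (0.0845) or without cycling cells (0.0598). The rise of *Rps27l* passed in each of these.

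Other genes of the translation machinery moved in the same comparison. Of 36 ribosome biogenesis genes 28 were higher and 0 lower (median log2 0.64), among them *Rrp12* (1.43) and *Mrto4* (1.21), which act in preribosome assembly and export. All 17 TOP-class translation factor genes were tested and 11 were higher, and 62 of 78 mitochondrial ribosomal protein genes were higher. *Rack1*, the ribosomal scaffold outside the rule, rose by 0.38, and *Fau* did not pass (0.04). *Myc* itself fell by 0.96 on the log2 scale (edgeR adjusted p = 0.00135).

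*Itga1*-positive cells were deeper (median 9493, 12075 and 24478 UMIs against 5345, 6717 and 6701) and more often cycling. A UMI of *Mki67* or *Top2a* was present in 23.5%, 37.7% and 51.4% of them against 9.86%, 20.6% and 17.1%, and 6 of 6 cycling markers were higher. The 5 myeloid markers summed to 416, 390 and 188 CPM against 154, 552 and 309. They did not move alike: of the 4 tested, *C1qa* and *C1qb* were lower (log2 -4.90 each) and *Cst3* was higher (1.02). *Lyz2* did not pass (-2.75, edgeR adjusted p = 0.0561). Of the 7 NK markers 6 were lower and 0 higher in *Itga1*-positive cells, and of the 4 Treg markers tested 3 were higher and 0 lower. The paper set apart a small cluster of innate lymphoid cells without *Eomes*. Whether such cells were among those classed here as NK cells was not tested. With cycling cells left out 77 members were higher and 0 lower, and at 5000 to 15000 UMIs 46 were higher and 0 lower. The members' median log2 fold change was 0.39 and 0.15 in these fits, against -0.01 and -0.0004 for all genes. For the alternatives, here and in the comparisons below, the share of all genes called was not counted. A changed count may therefore reflect the calls of all genes and not the members alone. The count of higher members was 29 without Kaede-green 1, 22 without Kaede-green 2 and 80 without Kaede-red, and 11 without the replicate block. The members' median log2 fold change was 0.32 without Kaede-green 1, 0.32 without Kaede-green 2 and 0.33 without the block. Scaled to the members' own total, an alternative chosen after the data were seen that sets the members as a group to no change, 20 were higher and 16 lower, with *Rps27l* still higher (log2 0.41) and *Rps27* lower (-0.59).

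Among CD8 T cells, most ribosomal protein transcripts made up a smaller share of all transcripts in cells with *Havcr2* than in those without it. Of 83 members tested, 66 were lower and 1 higher, where 14.1% of 12156 genes were lower and 13.8% higher, and the median log2 fold change was -0.26 against -0.00 for all genes. Lower members included 34 of 43 large subunit genes, 27 of 31 small subunit genes, 3 of 3 stalk genes and 2 of 6 paralogs. The only higher member was *Rps27l*. In 72 members *Havcr2*-positive cells were the lower in all 3 libraries.

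*Rps27* fell most, from 7889, 6715 and 5657 CPM in *Havcr2*-negative cells to 4826, 4761 and 4148 in *Havcr2*-positive cells. The groups did not overlap (log2 -0.60 ± 0.058, edgeR adjusted p = 0.000217). *Rps27rt* fell by 0.59 on the log2 scale, from 158, 159 and 152 to 96.3, 116 and 109 CPM. *Rps27l* had 342, 343 and 355 CPM in *Havcr2*-positive cells and 209, 238 and 258 in *Havcr2*-negative cells, again without overlap, and was 1.43-fold higher (log2 0.52 ± 0.060, adjusted p = 0.000512). Its call held without each library in turn, at 5000 to 15000 UMIs and without cycling cells, as did that of *Rps27*, which did not pass without the replicate block (adjusted p = 0.0665).

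The stalk gene *Rplp1* followed, with 4108, 3993 and 3786 CPM in *Havcr2*-positive cells and 6170, 5399 and 5047 in *Havcr2*-negative cells (log2 -0.53). *Rps21*, a small subunit protein, had 4038, 4124 and 3952 against 5792, 5322 and 5244 (log2 -0.48), and *Rpl12*, which sits at the base of the stalk, 2561, 2581 and 2541 against 3704, 3231 and 3164 (log2 -0.44). None of these genes overlapped between the subsets, and the *Havcr2*-positive values were the narrower. The other stalk genes fell less, *Rplp2* by 0.30 and *Rplp0* by 0.21. Without the replicate block *Rpl12* and these last genes did not pass, and *Rplp0* did not pass without Kaede-green 2 (edgeR adjusted p = 0.103).

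The most abundant members did not move alike. *Rps24* fell by 0.44, *Rps29* by 0.40 and *Rpl39* by 0.23, whereas *Rps15a* (log2 -0.11, edgeR adjusted p = 0.0506) and *Rpl41* (-0.08, adjusted p = 0.168) did not pass. *Rps29* lost its call without the replicate block (adjusted p = 0.0562) and *Rpl39* without the block or Kaede-green 2 (0.0775), *Rpl41* gained one without Kaede-green 1 (0.0335) and at 5000 to 15000 UMIs, and *Rps15a* gained one in 3 alternatives. Of the other paralogs *Rpl22l1* fell by 0.18, a call lost without Kaede-green 2 (adjusted p = 0.260), without TMM factors, without the block and by DESeq2 (0.122), and *Rpl36al* (-0.04), *Rpl7l1* (0.18, adjusted p = 0.0904) and *Rpl39l* (-0.59, adjusted p = 0.218) did not pass.

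The related gene lists moved less than the members here. Of the ribosome biogenesis genes 0 of 36 were higher and 3 lower, and of the TOP-class translation factors 4 of 17 were lower, including *Eef1b2* (log2 -0.26). Mitochondrial ribosomal protein genes had 20 of 78 higher and 2 lower. The ribosomal genes *Fau* and *Rack1*, outside the rule, fell by 0.21 and 0.18. *Myc* was lower (log2 -0.61), as was *Pdcd4*, an inhibitor of translation initiation (-0.97).

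*Havcr2*-positive cells were deeper than *Havcr2*-negative cells (median 12563, 12429 and 17532.5 UMIs against 8418.5, 9453.5 and 11262). They more often had a UMI of *Mki67* or *Top2a* (36.5%, 48.2% and 55.9% against 22.0%, 37.5% and 42.0%). Of 7 naive or memory-like markers 6 were lower and 1 was higher. Without Kaede-green 2 the count of lower members was 37, and without the replicate block it was 9. Scaled to the members' own total 17 were higher and 8 lower, with *Rps27l* higher (log2 0.78) and *Rps27* lower (-0.33).

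**Figure D3:**
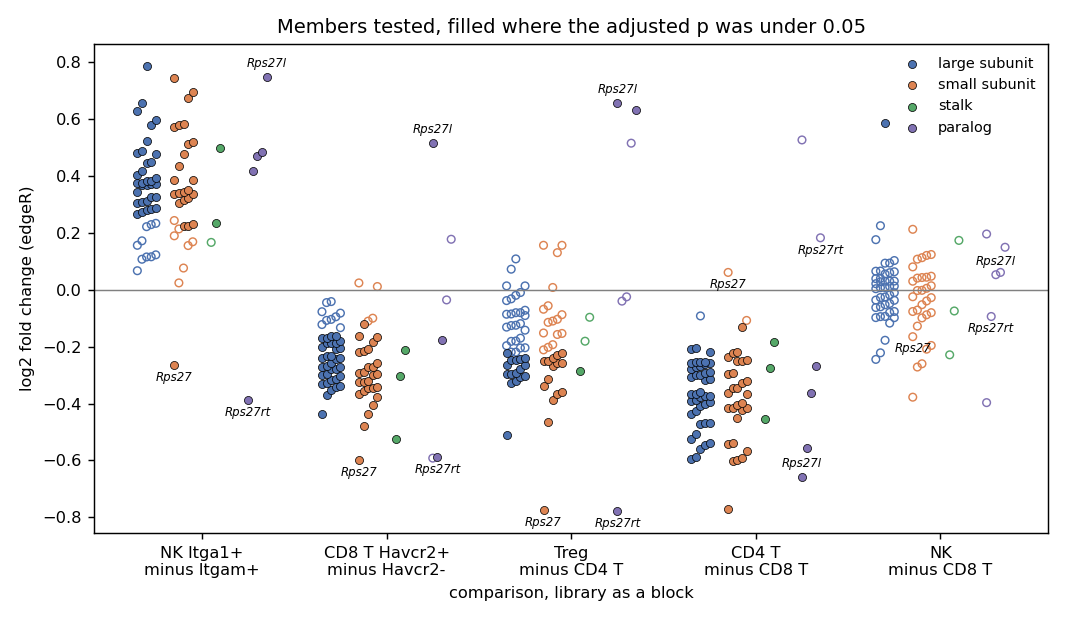
log2 fold change of each tested ribosomal protein gene (vertical axis) in 5 comparisons of cell classes (horizontal axis), with 1 point per gene, colored by role and filled where the edgeR adjusted p is under 0.05. Members sit mostly above 0 in *Itga1*-positive NK cells (median 0.34), below 0 in *Havcr2*-positive CD8 T cells (-0.26), Treg cells (-0.18) and CD4 T cells against CD8 T cells (-0.36), and around 0 in NK cells against CD8 T cells, all relative to the whole of the transcripts and not to the members' own total.

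In Treg cells ribosomal protein transcripts took a smaller share of all transcripts than in other CD4 T cells. Of 83 members, 33 were lower and 2 higher at an edgeR adjusted p under 0.05, where 14.5% of 10214 genes were lower and 14.1% higher. The median log2 fold change was -0.18, against -0.01 for all genes. Lower members were 16 of 43 large subunit genes, 15 of 31 small subunit genes, 1 of 3 stalk genes and 1 of 6 paralogs, and both higher members were paralogs, *Rps27l* and *Rpl7l1*. Treg cells were the lower in all 3 libraries for 55 members and the higher for 5.

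*Rps27* had 3998, 3974 and 4003 CPM in Treg cells and 7633, 6362 and 5889 in CD4 T cells. Treg libraries lay close together and well below every CD4 T library (log2 -0.77 ± 0.087, edgeR adjusted p = 7.35e-05). *Rps27rt* had 88.9, 107 and 109 CPM against 165, 165 and 173 (log2 -0.78 ± 0.11, adjusted p = 0.000264). *Rps27l* had 334, 335 and 265 CPM against 151, 212 and 217, without overlap (log2 0.65 ± 0.13, adjusted p = 0.00363). Its rise passed without each library in turn, at 5000 to 15000 UMIs (log2 0.39) and without cycling cells (0.51).

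*Rpl7l1*, a large subunit paralog that also works in ribosome assembly, had 59.8, 65.4 and 44.2 CPM in Treg cells and 26.8, 40.7 and 40.3 in CD4 T cells (log2 0.63 ± 0.16, edgeR adjusted p = 0.0121). The groups did not overlap, with the Kaede-red libraries closest to each other, and the call did not hold without Kaede-green 2 (adjusted p = 0.09996), at 5000 to 15000 UMIs (0.137) or without cycling cells (0.0662). *Rpl13a*, a large subunit protein also known from translational silencing after interferon, had 2654, 2599 and 2449 CPM against 4001, 3374 and 3244 (log2 -0.51). *Rps21* had 3476, 3613 and 3746 against 5060, 4647 and 4731 (log2 -0.46), and *Rps29* 5822, 6216 and 5198 against 7826, 7249 and 6659 (log2 -0.39). In these genes too, every Treg library lay below every CD4 T library.

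The paralogs *Rpl36al* (log2 -0.04), *Rpl22l1* (-0.03) and *Rpl39l* (0.51) did not pass. *Rps24* fell by 0.37, and of the stalk genes *Rplp2* fell by 0.29, while *Rplp1* (log2 -0.18, edgeR adjusted p = 0.0907) and *Rplp0* (-0.10, adjusted p = 0.34) did not pass. *Rplp2* lost its call without Kaede-green 1 (adjusted p = 0.0891), and *Rplp0* and *Rplp1* were lower at 5000 to 15000 UMIs (0.0011 and 0.00349). Among biogenesis genes 4 of 36 were higher, including *Mrto4* (0.80) and *Nhp2* (0.72), and 1 was lower, and 28 of 78 mitochondrial ribosomal protein genes were higher. *Myc* rose by 1.32 (adjusted p = 0.000671), *Fau* fell by 0.31 and *Rack1* did not pass (-0.16, adjusted p = 0.144).

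Treg cells were deeper in all 3 libraries (median 9577.5, 10098 and 7139 UMIs against 5889.5, 7008 and 5974) and more often cycling (37.4%, 45.6% and 35.2% against 17.8%, 28.0% and 24.6%). At 5000 to 15000 UMIs 72 members were lower and 1 higher, and without cycling cells 56 were lower and 1 higher. The count of lower members was 8 without Kaede-green 1, 16 without Kaede-red and 17 without the replicate block, and the count of higher members was 1 without Kaede-green 2. Scaled to the members' own total, 13 were higher and 7 lower.

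The counts of *Rps27* and *Rps27l* above can also be written as a ratio within each sum of cells, which restates them and adds no further evidence. There were 16.8, 14.7 and 11.8 *Rps27* UMIs per *Rps27l* UMI in *Itga1*-positive NK cells (14.4 ± 2.48, SD, n = 3) and 32.1, 23.5 and 33.1 in *Itgam*-positive NK cells (29.6 ± 5.26). CD8 T cells had 14.1, 13.9 and 11.7 with *Havcr2* (13.2 ± 1.33) and 37.7, 28.2 and 22.0 without it (29.3 ± 7.94). Treg cells had 12.0, 11.8 and 15.1 (13.0 ± 1.83) and CD4 T cells 50.7, 30.1 and 27.2 (36.0 ± 12.8). In none of these comparisons, which share no sum of cells, did the libraries of the groups overlap. This follows from the CPM above, in which both genes were without overlap and in opposite directions. For *Itga1* in NK cells, the fall of *Rps27* did not pass in several alternatives, as given above.

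**Figure D4:**
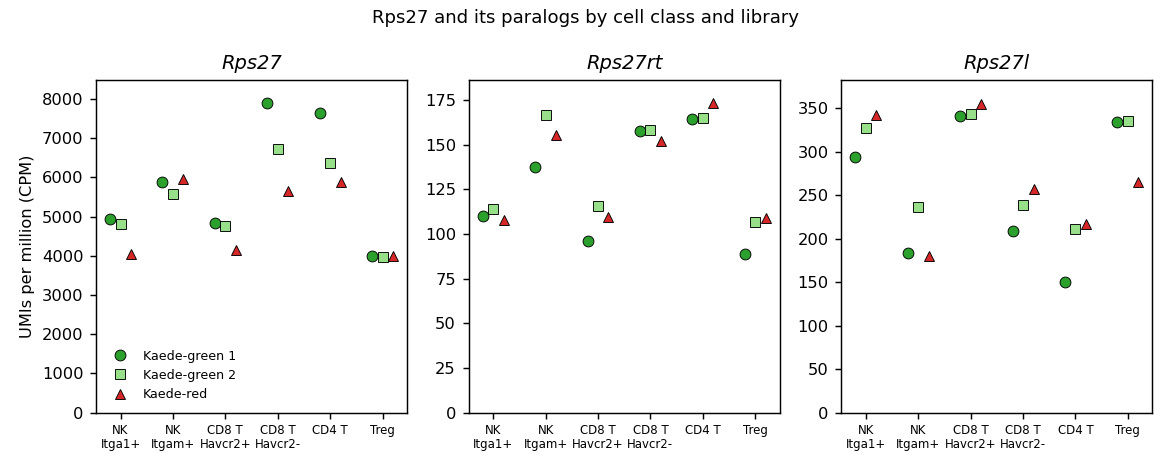
CPM of *Rps27*, *Rps27rt* and *Rps27l* (vertical axes) in 6 classes of cells, with 1 point per library. *Rps27* and *Rps27rt* are lower, and *Rps27l* higher, in *Itga1*-positive NK cells, *Havcr2*-positive CD8 T cells and Treg cells than in *Itgam*-positive NK cells, *Havcr2*-negative CD8 T cells and CD4 T cells, with no overlap in any pair.

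Nearly every ribosomal protein transcript made up a smaller share of all transcripts in CD4 T cells without *Foxp3* than in CD8 T cells. Of 83 members 78 were lower and 0 higher by edgeR, where 15.3% of 11767 genes were lower and 14.5% higher (29.8% either way), and the median log2 fold change was -0.36 against -0.01 for all genes. DESeq2 called 73 lower and 0 higher. By role, 42 of 43 large subunit genes, 29 of 31 small subunit genes, 3 of 3 stalk genes and 4 of 6 paralogs were lower. This comparison shares its CD4 T sums with the one before and its CD8 T sums with the one that follows.

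*Rps26*, a protein at the mRNA exit, led, with 2688, 2778 and 2631 CPM in CD4 T cells and 4145, 4117 and 4530 in CD8 T cells (log2 -0.77 ± 0.058, edgeR adjusted p = 5.25e-05). *Rps2* had 2662, 2695 and 2573 against 3837, 3639 and 3682 (log2 -0.60), and *Rps15a* 5057, 4870 and 5788 against 7136, 6825 and 8067 (log2 -0.60). *Rpl28*, of the large subunit, had 2548, 2620 and 2422 against 3472, 3397 and 3766 (log2 -0.60). These genes did not overlap between the classes.

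*Rps27l* was lower in CD4 T cells (151, 212 and 217 CPM against 245, 282 and 312, log2 -0.66 ± 0.080, edgeR adjusted p = 0.000527), whereas *Rps27* (log2 0.06, adjusted p = 0.316) and *Rps27rt* (0.18, adjusted p = 0.108) did not pass. Among the other paralogs *Rpl7l1* fell by 0.56, *Rpl22l1* by 0.36 and *Rpl36al* by 0.27. *Rpl39l* did not pass (0.53, adjusted p = 0.492). The stalk genes fell by 0.45 (*Rplp0*), 0.28 (*Rplp2*) and 0.19 (*Rplp1*), and *Rpl41*, *Rpl39*, *Rps29* and *Rps24* by 0.47, 0.44, 0.24 and 0.22. The call of *Rplp1* was lost without Kaede-green 1 (adjusted p = 0.185), without Kaede-green 2 (0.0732), without TMM factors, without the block and by DESeq2 (0.123). Without Kaede-green 1 those of *Rpl36al* (0.086), *Rps24* (0.0652) and *Rpl7l1* (0.0551) were lost too, and without Kaede-green 2 that of *Rpl36al* (0.06).

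Other translation genes were lower too: 14 of 17 TOP-class factors, 20 of 36 biogenesis genes (*Nhp2* by 1.04) and 47 of 78 mitochondrial ribosomal protein genes were lower, and 0 of each were higher. *Rack1* fell by 0.46, and *Fau* did not pass (-0.09, edgeR adjusted p = 0.123). CD4 T cells were shallower than CD8 T cells (median 5889.5, 7008 and 5974 UMIs against 8892, 10415.5 and 14093), and 6 of 6 cycling markers were lower in them. At 5000 to 15000 UMIs 80 members were lower, and without cycling cells 80. Scaled to the members' own total, 13 were higher and 16 lower, and without the replicate block 51 were lower.

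NK cells and CD8 T cells did not differ in a set direction. Of 83 members 1 was higher and 0 lower by edgeR, where 13.6% of 12987 genes were higher and 15.8% lower, with a median log2 fold change of -0.00. The NK share of ribosomal protein UMIs minus the CD8 T share was -4.83 and -2.0 points in the Kaede-green libraries and 3.64 in Kaede-red. Only 12 members had the same sign in all 3 libraries, 3 higher and 9 lower in NK cells. Without Kaede-red 13 members were lower and 1 higher, and DESeq2 called 1 lower.

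The exception was *Rpl10*, a large subunit protein that joins late in assembly near the peptidyl transferase center. It had 2740, 2779 and 3277 CPM in NK cells and 2057, 1932 and 1985 in CD8 T cells, without overlap. The gene was 1.502-fold higher (log2 0.59 ± 0.12, edgeR adjusted p = 0.0197), a call that did not hold without Kaede-green 2 (adjusted p = 0.134). *Rpl10* lies at chrX:74270812-74273135 on the plus strand. *Rps15a* had 5022, 5174 and 6441 CPM in NK cells and did not pass against CD8 T cells (log2 -0.38, adjusted p = 0.0673), but passed, in the same direction, in 6 alternatives, among them DESeq2 (0.0102), the fit without Kaede-red (0.00365) and that without TMM factors (0.0175), and when scaled to the members' own total. No paralog or stalk gene passed, with log2 fold changes between -0.40 (*Rpl39l*) and 0.20 (*Rpl7l1*). *Rps27l* (0.05, adjusted p = 0.680) was past the threshold at 5000 to 15000 UMIs (0.25, adjusted p = 0.0238) and without cycling cells (0.26, adjusted p = 0.0452), as was *Rpl7l1* (0.0367 and 0.0451), and *Rplp0* was lower without Kaede-red (adjusted p = 0.0068).

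In this comparison 0 of 17 TOP-class factors were called by edgeR, and 2 of 36 biogenesis genes were higher and 1 lower. *Myc* was higher in NK cells by 1.18 (edgeR adjusted p = 0.00063). Between members with and without CTTTC near the start, median log2 fold changes lay close together in every comparison: 0.35 and 0.37 for *Itga1* in NK cells, -0.24 and -0.24 for *Havcr2*, -0.20 and -0.15 for Treg cells, -0.06 and 0.02 for NK cells against CD8 T cells, and -0.37 and -0.37 for CD4 T cells against CD8 T cells. Only members with a promoter entered, 22 with and 40 without the letters for *Itga1*, and 23 and 40 in each other comparison. A start without these exact letters can still hold a pyrimidine run, so the split does not sort the members by TOP motif.

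Time in the tumor was read from Kaede color, as the log2 ratio of Kaede-red to each Kaede-green library within a class. A member was counted where its ratios to both Kaede-green libraries pointed the same way and were each larger in size than the ratio of one Kaede-green library to the other. Members with at least 10 UMIs were counted, and there was no test.

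In NK cells 73 of 82 members were higher in Kaede-red and 2 lower, where 20.3% of all genes were higher and 41.7% lower. The median log2 ratio was 0.32 and 0.27 to the 2 Kaede-green libraries, against -0.18 and -0.16 for all genes. The share of UMIs in ribosomal protein transcripts was 6.47 and 5.45 points above the Kaede-green libraries, which differed from each other by 1.02. At 5000 to 15000 UMIs it was 5.81 and 6.79 points above them.

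The small subunit genes *Rps20* (4211, 4611 and 6491 CPM) and *Rps2* (3226, 3401 and 4768) and the large subunit gene *Rpl14* (1623, 1612 and 2248) led in NK cells. For each, the Kaede-green libraries lay close together and Kaede-red apart. The 2 lower members were *Rps27* (5692, 5267 and 4420 CPM) and *Rps27rt* (127, 132 and 117).

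Both NK subsets showed it. In *Itgam*-positive NK cells 75 of 82 members were higher in Kaede-red and 0 lower (22.2% and 30.3% of all genes), with median ratios of 0.40 and 0.38, led by *Rps20*, *Rpl10a* (1704, 1734 and 2505 CPM) and *Rps19* (2231, 2187 and 3269). In *Itga1*-positive NK cells 63 were higher and 1 lower (15.1% and 33.4% of all genes), with median ratios of 0.15 and 0.14. The shares differed by 7.21 and 6.86 points in the first subset and by 3.18 and 3.05 in the second. In NK cells with neither gene they differed by 7.57 and 6.64 points. Kaede-red *Itgam*-positive cells had a median of 6701 UMIs, against 5345 in Kaede-green 1 and 6717 in Kaede-green 2. In *Itga1*-positive cells the median was 24478 in Kaede-red, against 9493 and 12075.

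T cells showed no such rise. In CD8 T cells 5 of 83 members were higher in Kaede-red and 15 lower (24.1% and 25.3% of all genes), with *Rps27* (7054, 5905 and 4804 CPM) and *Rps29* (8608, 8013 and 7123) among the lower and *Rps15a* and *Rps26* among the higher. With *Havcr2*, 12 of 82 were higher and 18 lower (16.1% and 22% of all genes), and without it 16 of 83 were higher and 5 lower (25.6% and 22.7%). In CD4 T cells 9 of 82 were higher and 20 lower (24.9% and 18.2%), including *Rpl35* (2056, 1804 and 1566 CPM) and *Rpl22l1* (856, 838 and 684) among the lower.

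In Treg cells 4 of 83 members were higher in Kaede-red and 38 lower (22.6% and 18.4% of all genes), which is more lower members than in any other class examined. *Rps2* had 3333, 3339 and 2547 CPM, *Rpl35* had 2138, 1923 and 1469 and *Rpl7l1* had 59.8, 65.4 and 44.2, each lowest in Kaede-red. *Rps15a* was among the higher, with 4682, 5189 and 5800.0 CPM. The share of UMIs minus that of each Kaede-green library was -0.790 and -1.60 points, where the gap between both Kaede-green libraries was 0.805, so that the first was no larger than the gap between them. Restricted to 5000 to 15000 UMIs it was -1.36 and -0.523, and Kaede-green 2 minus Kaede-green 1 was -0.835. Kaede-red Treg cells were also shallower (median 7139 UMIs against 9577.5 and 10098).

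**Figure D5:**
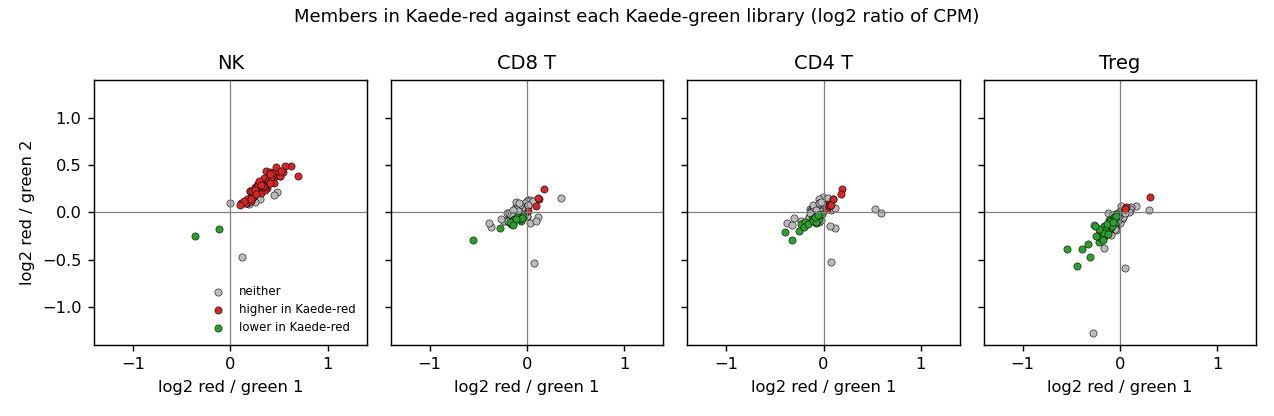
log2 ratio of Kaede-red to Kaede-green 2 (vertical axis) against that to Kaede-green 1 (horizontal axis), 1 panel per class and 1 point per ribosomal protein gene. Nearly all NK points lie in the upper right (73 of 82 counted as higher in Kaede-red), and Treg points spread to the lower left (38 of 83 counted as lower).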

How the data were processed

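The authors deposited 3 tables of raw counts, the number of UMIs per gene and cell barcode, not normalized. Alignment was to mm10; the submitters' processing notes name Cell Ranger 6.1.2 and the file headers name version 6.0.1. Whether introns were counted is not given in the sources used here. Following the study's methods, a cell needed 1000 to 6000 detected genes and less than 7.5% of UMIs from mitochondrial genes. Classes were set by marker UMIs. No doublet caller was run, and leaving out cells with markers of another class was an alternative. A rule that needs 1 UMI of a gene favors deeper cells. The members and lists were chosen with earlier results of these data known.

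Counts were summed per library and class. Sums were compared with edgeR 4.0.16 (R 4.3.3; quasi-likelihood test, TMM factors, filterByExpr, library as a block), with p-values adjusted over all genes tested by the Benjamini-Hochberg method and a threshold of 0.05; DESeq2 1.42.0 was an alternative, and the script was tested on simulated data. The block stands on the design: both sums of a comparison come from the same droplet run. The SE of a log2 fold change was worked back from the edgeR test, as the size of the change over the square root of its F statistic. It therefore restates the test and is no separate measure of spread. Named members were the 5 with the largest change each way past the threshold, every tested paralog, the 5 with the most UMIs and the stalk genes, and between colors the 3 each way with the largest ratio. *Rpl3l* and *Rpl10l* were too low to test. Some members named by this rule are not reported here. Color ratios used a pseudocount of 0.5 UMIs. Positions come from GENCODE M21 and start windows from RefSeq. Of the 11 genes that met the rule without encoding a ribosomal protein, 6 or 8 were tested in a comparison. At most 1 of them was called higher and at most 1 lower in any comparison.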

Additional observations from a re-analysis of the deposited data

Results flagged for a closer look

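The share of UMIs in ribosomal protein transcripts differed in opposite directions between libraries when NK cells were set against CD8 T cells: the first minus the second was -4.83 and -2.0 points in the Kaede-green libraries 1 and 2, and 3.64 in the Kaede-red library. Seen by color, every NK difference was positive (Kaede-red minus Kaede-green 1 and Kaede-green 2, 6.47 and 5.45 points), whereas those of CD8 T cells (-2.0 and -0.189) and of Treg cells (-0.790 and -1.60) were negative. Kaede-green 2 minus Kaede-green 1 was 1.02 points in NK cells, -1.81 in CD8 T cells and 0.805 in Treg cells, so in the T cell classes the color differences did not both exceed it in size. Restricted to 5000 to 15000 UMIs, the color differences were 5.81 and 6.79 in NK cells, -2.82 and 0.332 in CD8 T cells, where the second changed sign, and -1.36 and -0.523 in Treg cells. The differences between colors have no test because there is 1 Kaede-red library, and the share, a sum over the members, was given no test between classes.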

How the results depend on the processing

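Without the replicate block, which pairs sums of the same library, the counts of members changed to 11 higher and 1 lower for *Itga1* in NK cells, 9 lower for *Havcr2*, 17 lower for Treg cells and 51 lower for CD4 T against CD8 T cells. Without the block the members' median log2 fold changes were 0.33, -0.26, -0.19 and -0.36, against 0.34, -0.26, -0.18 and -0.36 in the main fit. No named member that passed in either fit changed direction. For the alternatives, the share of all genes called was not counted. Leaving out 1 library at a time gave 22 to 80 higher and 0 to 2 lower (*Itga1*), 37 to 69 lower (*Havcr2*), 1 to 3 higher and 8 to 22 lower (Treg), and 0 to 1 higher and 0 to 13 lower (NK against CD8 T). At 5000 to 15000 UMIs per cell the counts that moved were 0 lower (*Itga1*), 1 higher and 72 lower (Treg), and 3 higher and 1 lower (NK against CD8 T). Without cycling cells they were 0 lower, 1 and 56, and 3 and 1. DESeq2 gave 18 lower for Treg cells, and 1 lower for NK against CD8 T cells, as did the fits without TMM factors and without a filter on low counts. Without TMM factors 2 members were higher in CD4 T than in CD8 T cells.

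Scaled to the members' own total, chosen after the data were seen, higher and lower members numbered 20 and 16 (*Itga1*), 17 and 8 (*Havcr2*), 13 and 7 (Treg), 2 and 2 (NK against CD8 T) and 13 and 16 (CD4 T against CD8 T). This scaling shifts the log2 fold changes of a comparison together, by amounts that differ somewhat between genes. For *Itga1* the median moved from 0.34 to 0.02 for the members and from -0.02 to -0.37 for all genes. Turned signs are listed only for named members that passed in the main fit or under this scaling, so others may have turned too. The scaling turned the sign of *Rps29* (-0.11), *Rps24* (-0.17), *Rps15a* (-0.0075), *Rplp1* (-0.16) and *Rplp2* (-0.094) for *Itga1*. For *Havcr2* it turned *Rpl22l1* (0.088), *Rpl36al* (0.23), *Rpl41* (0.19), *Rps15a* (0.15), *Rpl39* (0.032) and *Rplp0* (0.052), for Treg cells *Rps15a* (0.14), and for CD4 T against CD8 T cells *Rpl36al* (0.082), *Rps29* (0.11), *Rps24* (0.13), *Rplp1* (0.17) and *Rplp2* (0.075). At 5000 to 15000 UMIs *Rpl22l1* turned for *Itga1* (-0.044).

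The difference of the share moved to 2.43 points for *Itga1*, -5.81 for *Havcr2*, -4.76 for Treg cells and -1.74 for Kaede-red CD4 T cells (mean against both Kaede-green libraries) at 5000 to 15000 UMIs, to -3.76 for *Havcr2* as a mean over cells, to -3.62 (Treg) and -5.55 (CD4 T against CD8 T) without cycling cells, and to -5.12 for the last without cells bearing markers of another class. Without 1 library it ranged from 4.04 to 6.06 (*Itga1*), -4.83 to -4.18 (*Havcr2*), -3.09 to -2.03 (Treg), -3.41 to 0.821 (NK against CD8 T, positive without Kaede-green 1) and -4.81 to -4.45 (CD4 T against CD8 T). Against 1 Kaede-green library the color difference was 5.45 to 6.47 (NK), -2.0 to -0.189 (CD8 T), -1.27 to 0.0368 (CD4 T) and -1.60 to -0.790 (Treg).

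Causes of these changes were not tested. Classes rest on a few marker UMIs, so a shallow cell can be missed. Kaede-red *Itgam*-positive NK cells (76) and CD4 T cells (211) are few, and color and library cannot be told apart.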

Other observations

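*Rpl27*, which encodes the large subunit protein eL27 (chr11:101442298-101445529, plus strand, GRCm38), stood apart between the Kaede-green libraries and was picked after its values were seen. It had 1814, 2752 and 1977 CPM in NK cells (in the order Kaede-green 1, Kaede-green 2, Kaede-red), 1978, 3025 and 2086 in CD8 T cells and 1665, 2598 and 1721 in Treg cells. Kaede-green 2 was the higher by 1.51- to 1.56-fold over Kaede-green 1 in all 8 classes examined (log2 0.59 to 0.64). With 1 value per library these differences have no test.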
